A study of Mus musculus with 10 samples.

Results

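The genes described here are those of the circadian clock in the lungs of mice exposed to cigarette smoke. They were 10 genes of the 27670 that the array represents: the activators Arntl, Npas2 and Clock, the repressors Per1, Per2, Per3, Nr1d1, Nr1d2 and Bhlhe41, and the output factor Dbp. A probe was counted as a member's when the gene name in the scanner file, or the current symbol of the accession listed with it, was one of these 10, which gave 17 of 41174 probes. Bhlhe41 carries its older name Bhlhb3 in the files.

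The mouse arrays compare lungs after 8 weeks of cigarette smoke with lungs kept in room air, in a study that also used human smokers, whose samples are not analysed here. The animals were female BALB/c mice, young adults when obtained. Smoke was given on 5 days of each week in a chamber that held the whole animal. It was mainstream smoke from research cigarettes without filters, and the control mice had room air only. Each group held 5 animals, and the RNA of 1 whole lung sample per animal was read on 1 array. The 2 groups shared strain, sex and tissue, and neither carried a genetic change. The hour of day at which lungs were taken is not given in the sources used here.

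The clock is a feedback loop inside the cell. Arntl pairs with Clock, or with the related Npas2, and the pair switches on genes that carry an E-box, among them the Per and Cry genes, Nr1d1, Nr1d2, Bhlhe41 and Dbp. Per and Cry proteins then block the activators, Nr1d1 and Nr1d2 shut Arntl and Npas2 off through ROR elements, and Dbp acts on D-boxes, so that activators and repressors peak at opposite times of the day. Lung tissue keeps such a rhythm of its own, with club cells of the airway lining among the cells known to carry it.

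Promoter sequences were searched for the letters of such motifs, and the windows of the 5 members with a match are printed here. RefSeq windows (GRCm38.p6) of 250 bases before and 50 bases after a transcription start were at hand for 9 of the 10 members, 13 windows in all. Per2 had no entry. The motifs searched on both strands were CACGTG (E-box), CACGTT (E-box variant), TTATGTAA and TTACGTAA (D-box), TAGGTCA and TGGGTCA (ROR element) and TGACGTCA (cAMP element), none of which contains another. Capitals mark each match, and all sequences run 5' to 3' on the strand of the gene. The Arntl window is chr7:113207261-113207560 (plus strand), that of Nr1d1 is chr11:98775328-98775627 (minus strand), that of Per1 is chr11:69098699-69098998 (plus strand), that of Per3 is chr4:151044616-151044915 (minus strand) and that of Bhlhe41 is chr6:145865371-145865670 (minus strand).
Arntl promoter: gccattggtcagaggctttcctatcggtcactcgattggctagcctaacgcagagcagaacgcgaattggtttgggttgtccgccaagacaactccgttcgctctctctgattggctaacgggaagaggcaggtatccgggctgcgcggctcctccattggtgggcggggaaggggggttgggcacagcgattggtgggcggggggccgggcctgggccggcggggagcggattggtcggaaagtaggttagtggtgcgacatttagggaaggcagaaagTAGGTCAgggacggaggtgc
Per1 promoter: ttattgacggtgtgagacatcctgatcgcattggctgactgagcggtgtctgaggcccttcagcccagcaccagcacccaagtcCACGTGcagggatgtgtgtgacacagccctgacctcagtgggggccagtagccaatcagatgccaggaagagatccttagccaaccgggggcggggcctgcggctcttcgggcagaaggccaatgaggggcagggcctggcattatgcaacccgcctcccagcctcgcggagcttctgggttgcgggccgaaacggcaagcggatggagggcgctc
Per3 promoter: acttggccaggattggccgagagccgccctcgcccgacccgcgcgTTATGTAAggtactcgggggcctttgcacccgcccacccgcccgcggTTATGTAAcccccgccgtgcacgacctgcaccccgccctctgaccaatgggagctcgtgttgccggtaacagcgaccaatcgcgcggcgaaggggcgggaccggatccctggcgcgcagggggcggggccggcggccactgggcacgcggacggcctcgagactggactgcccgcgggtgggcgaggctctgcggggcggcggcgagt
Nr1d1 promoter: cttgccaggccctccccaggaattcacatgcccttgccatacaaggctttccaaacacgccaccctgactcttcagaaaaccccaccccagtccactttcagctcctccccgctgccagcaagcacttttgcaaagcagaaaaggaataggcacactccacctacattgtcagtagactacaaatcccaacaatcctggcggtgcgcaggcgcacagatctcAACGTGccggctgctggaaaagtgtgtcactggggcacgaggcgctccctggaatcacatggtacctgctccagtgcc
Bhlhe41 promoter: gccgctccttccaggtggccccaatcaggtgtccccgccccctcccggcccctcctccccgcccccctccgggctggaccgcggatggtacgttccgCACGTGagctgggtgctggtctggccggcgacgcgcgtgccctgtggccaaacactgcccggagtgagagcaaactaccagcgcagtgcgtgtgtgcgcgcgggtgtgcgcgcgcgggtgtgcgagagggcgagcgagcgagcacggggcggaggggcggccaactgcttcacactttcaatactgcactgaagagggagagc
The E-box began 166 bases before the start of Per1 and 153 bases before that of Bhlhe41, and 7.15% of the 32851 mouse windows hold one. Nr1d1 carried the E-box variant, read as AACGTG, 28 bases before its start, and 4.68% of windows hold it on either strand. Per3 carried 2 D-boxes, 205 and 158 bases before its start, in a form held by 0.938% of windows. The ROR element of Arntl began at base 31 after the start, and 2.61% of windows hold it. TTACGTAA (0.119% of all windows), TGGGTCA (3.98%) and TGACGTCA (1.79%) were in no member window. The windows of Npas2, Clock, Nr1d2 and Dbp held none of the motifs. The E-box was in 2 of the 13 member windows. A match is a description of the letters and does not show that a site is used, and sites outside these windows were not searched.

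Each array carried 2 colours. Lung RNA was in the red channel and a common reference in the green one, as the values showed: the mice are female, and Y-linked Ddx3y gave a mean log2 processed signal of 9.92 ± 0.43 (SD, n = 10) in green against 2.97 ± 1.15 in red, whereas the club cell gene Scgb1a1 had 13.57 ± 0.25 in green and 20.29 ± 0.30 in red. The labels name a single dye, so this reading rests on the files. The alveolar type 1 gene Ager was likewise brighter in red, by 4.83 on the log2 scale, and so was the surfactant gene Sftpc, which was saturated on 1 array. Between 64.9% and 77.5% of spots were well above background in red. All values below are log2 ratios of lung over reference, and a difference is the smoke mean minus the room air mean.

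The sign of every difference rests on which array belongs to which group, and the deposited sources disagree on it. In the table of processed values, 286449 of 286449 values equalled, within 1e-04, those of the scanner file that bears the same number but belongs to the opposite group. The groups used here are those to which the scanner files are assigned. With the table's own assignment the sign of each member's difference turns.

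Of the 10 members, 8 passed the threshold of an adjusted p under 0.05 (limma, Benjamini-Hochberg over all probes), where 8.23% of all genes did. All 3 activators were lower in smoke-exposed lungs, against 3.27% of genes lower overall. Higher values were called for 5 members, Per3, Nr1d1, Nr1d2, Bhlhe41 and Dbp, against 4.96% of genes higher overall. Per1 and Per2 did not pass. The groups did not overlap in 7 members, which was so in 7.89% of all genes. The median absolute difference was 0.76 over the members and 0.0665 over all genes. The study names a Wilcoxon test but not its form. In the exact form it cannot go below a p of 0.00794 with 5 lungs a group and called 0 probes after adjustment, while 8 members had an unadjusted p under 0.05, as did 13.2% of the 41133 probes tested. With the red channel alone, scaled to its 75th percentile, 5 members passed, and Clock (-0.58, adjusted p = 0.062), Per3 (1.02, adjusted p = 0.0862) and Npas2 (-1.595, adjusted p = 0.152) did not, with differences as large as or larger than those below.

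**Figure D1:**
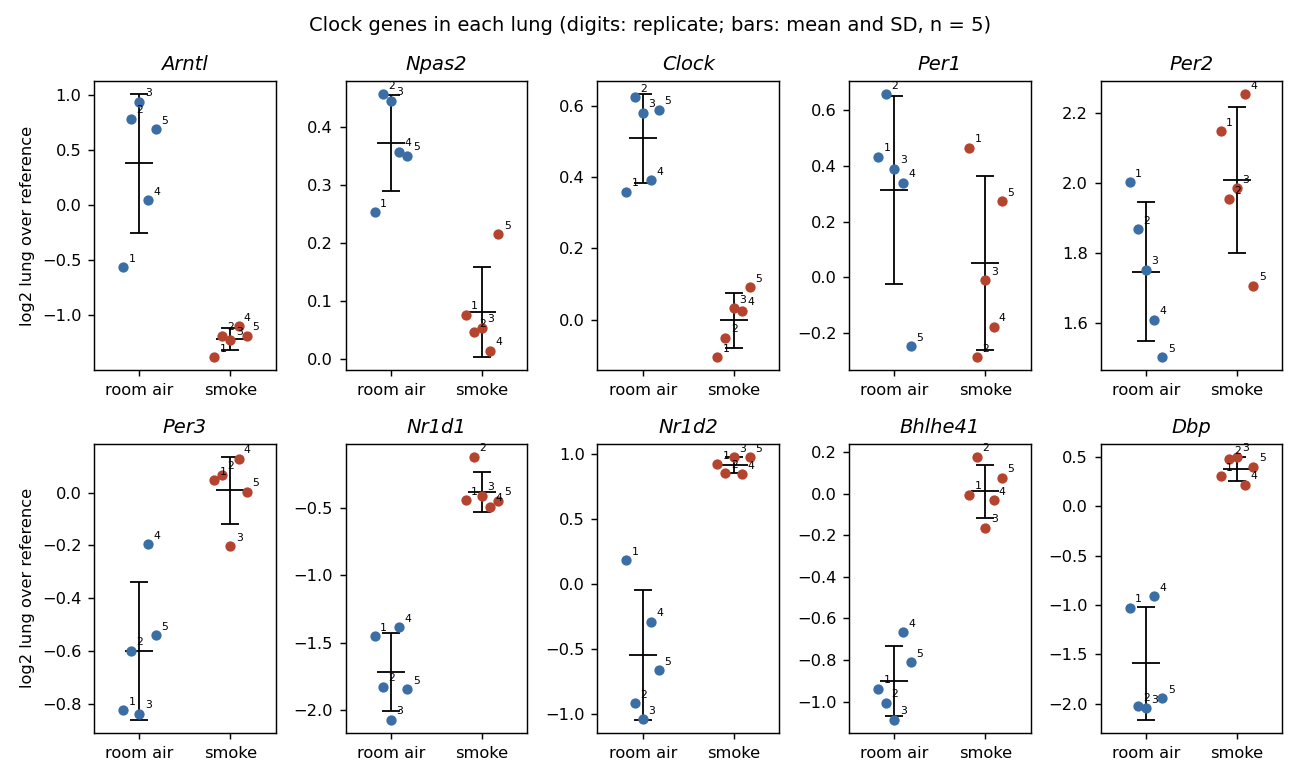
Log2 ratio of lung over reference (vertical axis, a scale of its own in each panel) of the 10 clock genes in each of the 5 room air and 5 smoke lungs, by the brightest probe of each gene. Digits are replicate numbers and bars are the mean and SD. The smoke lungs lie below all room air lungs for Arntl, Npas2 and Clock and above them for Nr1d1, Nr1d2, Bhlhe41 and Dbp.

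Arntl (Bmal1) is the activator without which the loop stops. Its log2 ratio in the room air lungs was -0.56, 0.78, 0.94, 0.04 and 0.69 in replicates 1 to 5, and in the smoke lungs it was -1.38, -1.18, -1.22, -1.10 and -1.18. The smoke lungs lay close together and below every room air lung, while the room air lungs were spread widely, with replicate 1 lowest and replicate 4 next. Means were 0.38 ± 0.63 (SD, n = 5) and -1.21 ± 0.10, a difference of -1.59 ± 0.24 (SE) or 3.01-fold lower, with an adjusted p of 0.00211. By size this was rank 2 among falls over 27669 genes. It rests on 1 probe of 60 bases, annotated by the files at chr7:109229489-109229548 of mouse build mm7.
Arntl probe: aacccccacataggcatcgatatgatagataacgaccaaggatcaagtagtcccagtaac

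Clock is the usual partner of Arntl. Its brightest probe read 0.36, 0.62, 0.58, 0.39 and 0.59 in room air replicates 1 to 5, and -0.10, -0.05, 0.03, 0.03 and 0.09 in smoke replicates 1 to 5. All smoke lungs were below all room air lungs, and room air replicates 1 and 4 were again the lowest of their group. The difference was -0.51 ± 0.06 (SE), 1.43-fold lower, with an adjusted p of 0.000719. Clock had 4 probes, which differed in size: a second one passed as well (-0.44, adjusted p = 0.00413), and the others gave -0.26 (adjusted p = 0.0863) and -0.10 (adjusted p = 0.422). The mean of the 4 probes differed by -0.33.

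Npas2, which can stand in for Clock, was dim. It read 0.25, 0.46, 0.45, 0.36 and 0.35 in room air replicates 1 to 5, and 0.08, 0.05, 0.05, 0.02 and 0.22 in smoke replicates 1 to 5. In red it stood well above background on all 5 room air arrays but on only 1 smoke array. In green it did so on 2 of 10 arrays. The fit gave -0.29 ± 0.06 (SE) with an adjusted p of 0.00816 and groups that do not overlap, but with most smoke arrays near background the size of the difference is not known well. Its size and call changed with the background correction. Without the offset added to the signals the adjusted p was 0.0696 at a difference of -0.80, and by the scanner software's own ratio it was 0.236 at -1.43.

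Nr1d1 (Rev-erb alpha) is the nuclear receptor that represses Arntl. It read -1.45, -1.83, -2.07, -1.38 and -1.85 in room air replicates 1 to 5, and -0.44, -0.12, -0.41, -0.49 and -0.45 in smoke replicates 1 to 5. Every smoke lung was above every room air lung, with smoke replicate 2 apart at the top. The difference was 1.33 ± 0.13 (SE), 2.52-fold higher, with an adjusted p of 0.000102. The gene's 3 probes disagreed. Another probe named through the same accession gave 0.29 (adjusted p = 0.0508), which passed with the slide as a block (adjusted p = 0.0115). The last, tied to a different transcript record, gave 0.02 (adjusted p = 0.956). The size thus depended on the values taken, from 0.55 for the mean of the 3 probes to 1.91 for the red channel scaled to its 75th percentile. The first 2 are printed for comparison, with their positions in mm7, chr11:98878251-98878753 for the brightest and chr11:98881057-98881116 for the other.
Nr1d1 brightest probe: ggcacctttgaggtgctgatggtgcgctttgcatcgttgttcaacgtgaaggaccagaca
Nr1d1 other probe: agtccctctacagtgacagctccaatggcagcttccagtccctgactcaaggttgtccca

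Nr1d2 (Rev-erb beta) is the close relative of Nr1d1 with the same targets. It read 0.18, -0.92, -1.04, -0.29 and -0.67 in room air replicates 1 to 5, and 0.92, 0.85, 0.97, 0.84 and 0.98 in smoke replicates 1 to 5. The smoke lungs spanned a narrow band above all room air lungs, and room air replicates 1 and 4 came nearest to it. Means were -0.55 ± 0.50 (SD, n = 5) and 0.91 ± 0.06, a difference of 1.46 ± 0.19 (SE) or 2.75-fold higher, with an adjusted p of 0.000881.

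Bhlhe41 (Dec2) is a repressor that competes for the E-box. Its brighter probe read -0.94, -1.0, -1.09, -0.67 and -0.81 in room air replicates 1 to 5, and -0.01, 0.18, -0.17, -0.03 and 0.08 in smoke replicates 1 to 5. The groups did not overlap, and here room air replicate 1 was not among the lungs nearest to the smoke group. The difference was 0.91 ± 0.09 (SE), 1.88-fold higher, with an adjusted p of 9.67e-05. The second probe was not well above background in red on any array, where its difference was 0.06 ± 0.05 (SE). Other settings changed the size of the Bhlhe41 difference but not its call in the limma fits of the scanner files: it was 1.53 without the offset, 1.67 by the scanner's own ratio, 1.70 with the red channel scaled to its 75th percentile and 0.49 for the mean of both probes.

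The Period genes, whose proteins bind and block the activators, did not move as one. Per3 read -0.82, -0.60, -0.84, -0.20 and -0.54 in room air replicates 1 to 5, and 0.05, 0.07, -0.20, 0.13 and 0.00 in smoke replicates 1 to 5. Smoke replicate 3 (-0.202) lay just under room air replicate 4 (-0.196), so the groups overlapped in that pair of lungs alone. The difference was 0.61 ± 0.11 (SE), 1.52-fold higher, with an adjusted p of 0.00783, and it was 1.01 without the offset and 1.05 by the scanner's own ratio. It missed the threshold with median centring (adjusted p = 0.0508) and with the red channel scaled to its 75th percentile (adjusted p = 0.0862).

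Per2 and Per1 did not pass. Per2 read between 1.5 and 2.00 in room air lungs and between 1.71 and 2.25 in smoke lungs, ranges that overlap. Its difference was 0.26, with a 95% confidence interval of 0.01 to 0.51 and an adjusted p of 0.249, and the second probe gave 0.16 (adjusted p = 0.425). Scaling the ratios between arrays brought Per2 past the threshold (adjusted p = 0.0404). Per1, which also answers quickly to hormones and other signals, read between -0.25 and 0.66 in room air lungs and between -0.29 and 0.47 in smoke lungs. Its difference was -0.26, with an interval of -0.65 to 0.13 and an adjusted p of 0.532, and the interval covers both signs.

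Dbp is the output factor that reads the state of the activators directly. It read -1.03, -2.03, -2.05, -0.91 and -1.95 in room air replicates 1 to 5, and 0.31, 0.48, 0.50, 0.22 and 0.40 in smoke replicates 1 to 5. The smoke lungs were all above the room air lungs, among which replicates 1 and 4 stood about 1 log2 unit above the others. Means were -1.59 ± 0.57 (SD, n = 5) and 0.38 ± 0.12, a difference of 1.97 ± 0.22 (SE) or 3.93-fold higher, with an adjusted p of 0.00031. This was rank 32 among rises over 27669 genes and the largest difference of the 10 members by these ratios, while in the authors' table that of Arntl was larger in size (1.09 against 1.04). That table averages both channels, so a difference in red alone enters it divided by 2. Times 2, its sizes are 2.19 for Arntl and 2.09 for Dbp, beside 2.04 and 2.12 in the red channel scaled to its 75th percentile.

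**Figure D2:**
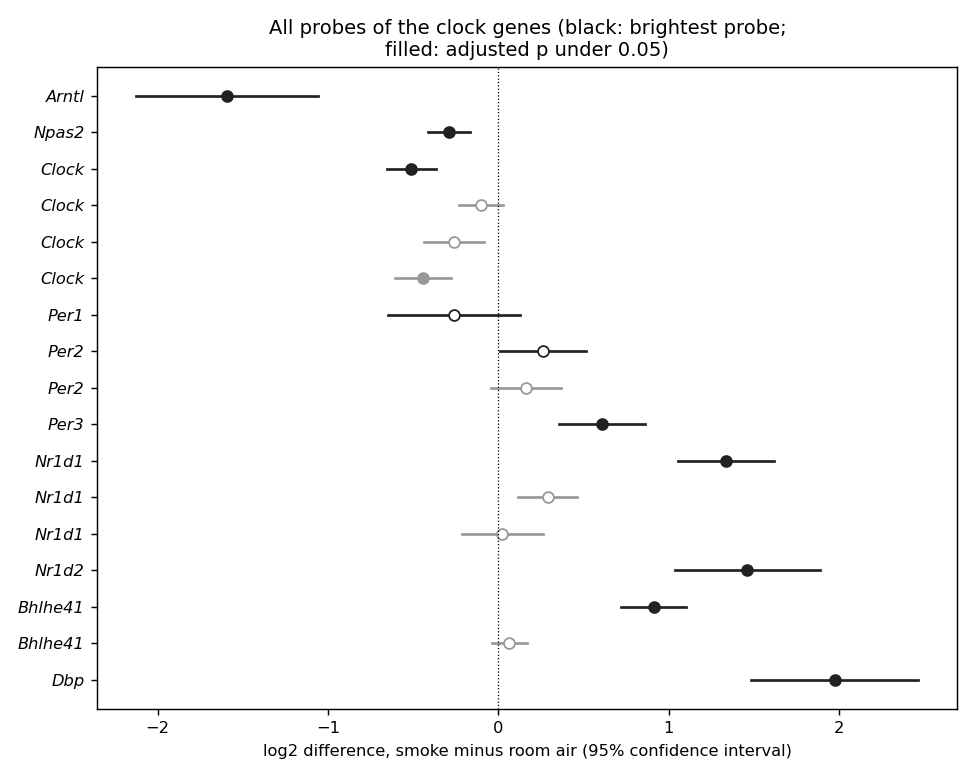
Log2 difference, smoke minus room air, with its 95% confidence interval (horizontal axis) for each of the 17 probes of the clock genes. Black marks the brightest probe of a gene and grey its other probes, and filled circles have an adjusted p under 0.05. Probes of Clock, Nr1d1 and Bhlhe41 differ in size, and no called probe has the opposite sign to another of its gene.

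Of the 17 probes, 9 passed, against 7.06% of all probes. Single probes stand for 6 members, and 4 members have several.

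Smoke and room air arrays with the same replicate number lay side by side on 1 slide, so that each slide gives a difference of its own. For Arntl these were -0.81, -1.97, -2.16, -1.14 and -1.87 on slides 1 to 5. For Dbp they were 1.33, 2.51, 2.55, 1.13 and 2.35, and for Nr1d2 they were 0.74, 1.77, 2.02, 1.13 and 1.64. Slides 1 and 4 gave the smallest differences in all 3 genes, and the sign was the same on 5 of 5 slides. Npas2 and Clock were lower with smoke on 5 of 5 slides, and Per2, Per3, Nr1d1 and Bhlhe41 were higher on 5 of 5. Per1 was higher on 2 and lower on 3. With the slide as a block, 8 members passed as before, while the genes called overall went from 2276 to 3816 and the probes from 2906 to 5019. Smoke arrays always had the same place on the slide, so place and group cannot be told apart.

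The reference RNA on the same spots gives a background for these differences. In the green channel alone, the members differed between groups by -0.04 to 0.12 on the log2 scale, and limma called 0 of 10, with 0 at an unadjusted p under 0.05. Over all genes 0.0470% were called in green.

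The members can be read together by averaging the activators, and the repressors with Dbp, in each lung after centring each gene over the 10 arrays. The repressors minus the activators came to -0.21, -1.13, -1.32, -0.43 and -1.15 in room air replicates 1 to 5, and to 1.00, 0.88, 0.80, 0.79 and 0.76 in smoke replicates 1 to 5. The centring puts zero midway between the group means, so high and low here are relative to that point. Every smoke lung had repressors high and activators low. Room air replicates 2, 3, 4 and 5 had the reverse, with replicate 4 nearest to zero among them, and in replicate 1 the activators were close to zero (-0.005) and the repressors low (-0.21). The group means were -0.85 ± 0.49 (SD, n = 5) and 0.85 ± 0.10, a difference of 1.70 that is given as a description with no test, since the members were chosen with results known. It was 1.52 without Dbp and 1.69 without Bhlhe41.

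Room air replicate 1 also stood apart from its group in genes outside the clock. It had the highest ratio of the 10 lungs in 6 of 6 neutrophil markers, whose summed red signal was 150130 there, 22705 to 28920 in the other room air lungs and 31739 to 67190 in smoke lungs, with S100a9 the brightest. The log2 ratio of S100a8 was 4.39 in this lung and 1.49 to 2.09 in the other room air lungs, that of Cxcr2 3.52 against 1.09 to 1.71, and that of Csf3r 3.26 against 1.33 to 1.96. Of 15 glucocorticoid-responsive genes it was the highest room air lung in 9, by the most in Mt2 (0.76 against -3.73 to -3.08), and not in the other 6, among them Dusp1 and Tsc22d3. Mt2 did not pass with all lungs (adjusted p = 0.592) and did without this one. The same was so of the neutrophil marker S100a8. Without this lung 8 members passed, Arntl differed by -1.83 and the contrast of repressors and activators was 1.86.

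**Figure D3:**
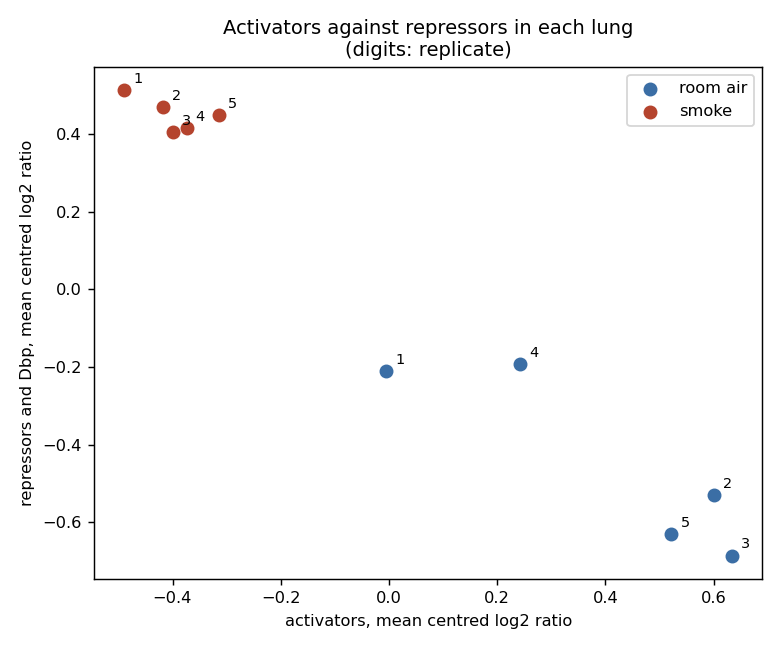
Mean centred log2 ratio of the activators Arntl, Npas2 and Clock (horizontal axis) against that of the repressors and Dbp (vertical axis) in each lung, with replicate numbers. The 5 smoke lungs cluster at the upper left, and room air replicates 1 and 4 lie between them and the other room air lungs.

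The room air lungs varied more than the smoke lungs. The SD was larger in room air for 9 of 10 members, against 59.7% of all genes, and the median ratio of the SDs was 1.78 over the members and 1.14 over all genes. It reached 7.79 for Nr1d2, 6.15 for Arntl and 4.79 for Dbp. A ratio over 3 was found in 3 of 10 members and in 5.36% of all genes. Without room air replicate 1 these ratios were 5.18, 3.86 and 4.61, the SD was larger in room air for 8 of 10 members and 52.5% of all genes, and a ratio over 3 was found in the same 3 members and in 2.94% of all genes. Whether the lungs of the groups were taken at like hours is not given in the sources used here, and its part in these values was not tested.

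Around the core loop stand 26 other clock genes, of which 4 were higher, against 4.96% of all genes, and 0 lower, against 3.27%, with a median difference of -0.04, beside -0.004 over all genes. Tef, a relative of Dbp that binds the same D-box, was higher by 0.68 ± 0.11 (SE, adjusted p = 0.00354), and Hlf, the remaining factor of that family, by 0.47 ± 0.11 (adjusted p = 0.0232). Bhlhe40 (Dec1), the relative of Bhlhe41, was higher by 0.77 ± 0.17 (adjusted p = 0.0184), and Usp2, a deubiquitinase known as an output of the clock, by 0.61 ± 0.09 (adjusted p = 0.00171). With median centring only Usp2 of these passed, and without smoke replicate 1 only Tef and Usp2. Hlf was the least firm: it was not called in 5 of the 10 fits without a lung (room air replicates 3 and 5 and smoke replicates 1, 2 and 3), without the offset, by the scanner's own ratio or with the red channel scaled to its 75th percentile. The groups did not overlap for Tef and Usp2. Of the 4 probes of Tef 2 passed, and the second probe of Usp2 did not (0.095, adjusted p = 0.465).

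Room air replicates 1 and 4 came nearest to the smoke lungs in Tef but not in all of these genes. Tef read 1.07, 0.54, 0.56, 0.88 and 0.52 in room air replicates 1 to 5, with replicates 1 and 4 highest, and 1.45, 1.23, 1.57, 1.3 and 1.42 in smoke replicates 1 to 5. Bhlhe40 read -0.27, -1.03, -1.3, -0.99 and -1.17 in room air and -0.01, -0.14, -0.49, -0.10 and -0.18 with smoke, and room air replicate 1 lay within the range of the smoke lungs, with replicate 4 close to replicate 2. In Usp2 the room air lungs nearest to smoke were replicates 2 (-0.04) and 1 (-0.11), and in Hlf replicates 2 and 4 were alike (both 1.59) below replicate 1 (1.71).

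The cryptochromes, which work with the Per proteins, did not pass: Cry1 differed by -0.08 (adjusted p = 0.829) and Cry2 by -0.09 (adjusted p = 0.735). Rora, a nuclear receptor that opposes Nr1d1 at the Arntl promoter, gave 0.05 (adjusted p = 0.903). The 2 probes of Nfil3, the repressor at D-boxes, differed: the brighter gave -0.18 (adjusted p = 0.513), while the other was called lower with no overlap of the groups (-0.56, adjusted p = 0.00801). Ciart, a further repressor of the activators, gave -0.14 (adjusted p = 0.422). Csnk1d, a kinase that acts on Per proteins, did not pass by its brightest probe (-0.16, adjusted p = 0.703) but was higher by a dimmer one (0.19, adjusted p = 0.0299). Timeless did not pass, and with the slide as a block it was called in opposite directions by its 2 probes (-0.21, adjusted p = 0.0221 for the brighter and 0.31, adjusted p = 0.0491 for the other). The brighter was also called by the scanner's own ratio, with ratios scaled between arrays and without smoke replicate 5. Arntl2 was not well above background in red on any array.

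**Figure D4:**
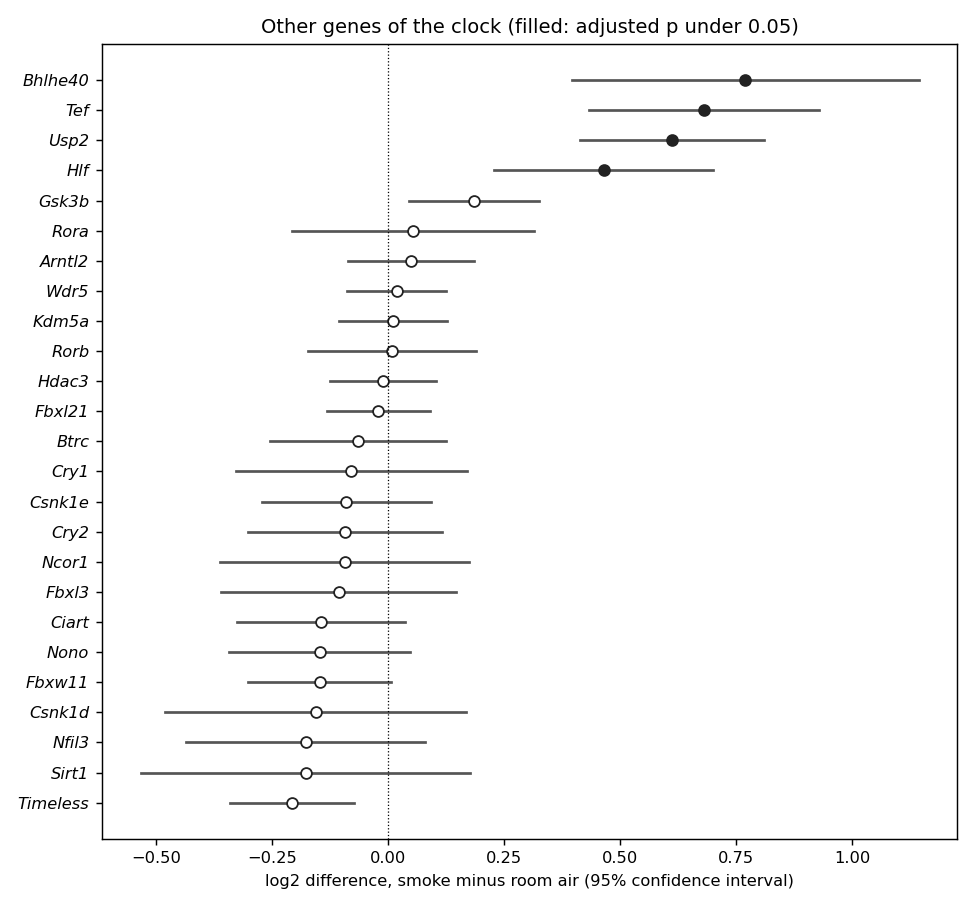
Log2 difference, smoke minus room air, with its 95% confidence interval (horizontal axis) for 25 of the 26 other genes of the clock, ordered by size. Filled circles have an adjusted p under 0.05, and these are Bhlhe40, Tef, Usp2 and Hlf.

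Among 21 measured genes known to be rhythmic in many tissues, 4 were higher and 3 lower, against 4.96% and 3.27% of all genes, with a median difference of 0.05. Of these only Avpr1a passed with median centring or with the red channel scaled to its 75th percentile. By their brightest probes, Avpr1a, Herpud1, Lonrf3, Nr3c1 and Rbm3 passed in all 10 fits without a lung. Tspan4 was not called without room air replicate 2, 3 or 5 or smoke replicate 1, and Tsc22d3 passed in only 2 of these 10 fits, those without room air replicate 5 or smoke replicate 1. The rises were in Tspan4, a tetraspanin (0.75, adjusted p = 0.022), Rbm3, a cold-induced RNA-binding protein (0.50, adjusted p = 0.0135), Lonrf3 (0.42, adjusted p = 0.00704) and Herpud1, of the endoplasmic reticulum stress response (0.34, adjusted p = 0.00575). The other probe of Rbm3 had the opposite sign and passed too (-0.345, adjusted p = 0.0258), so the direction of this gene is not settled, and the other probe of Lonrf3 gave 0.01 (adjusted p = 0.955). Avpr1a, a vasopressin receptor, was lower (-0.93 ± 0.07 SE, adjusted p = 2.48e-05), and so were Nr3c1, the glucocorticoid receptor (-0.30, adjusted p = 0.00585), and Tsc22d3 (-0.43, adjusted p = 0.0397). Of the 4 probes of Nr3c1 only this 1 passed. The block added Dtx4 (-0.28, adjusted p = 0.018). Dtx4 also passed among probes well above background in red or in both channels and with the red channel normalized by quantiles. It did so too without room air replicate 4 or 5.

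Glucocorticoids, which follow a daily rhythm themselves, act on a further list of 15 measured genes, of which 1 was higher and 3 lower, against 4.96% and 3.27% of all genes, with a median of -0.11. With median centring Dusp1 and Errfi1 passed, and 0 with the red channel scaled to its 75th percentile. Fkbp5, a chaperone partner of the receptor, was higher by 0.66 ± 0.12 (SE, adjusted p = 0.00511), and 2 of its 3 probes passed. Errfi1 (-0.55, adjusted p = 0.00924), Dusp1 (-0.57, adjusted p = 0.0286) and Tsc22d3, which both lists hold, were lower. Dusp1 was not called without room air replicate 2 or 3 or smoke replicate 3, 4 or 5, nor without the offset, by the scanner's own ratio or with ratios scaled between arrays, while Fkbp5 and Errfi1 passed in all 10 fits without a lung. With the block, Glul (0.42, adjusted p = 0.0169) and Klf9 (-0.54, adjusted p = 0.00485) passed too. Glul also passed with the red channel normalized by quantiles and without room air replicate 1. The list gave calls in both directions.

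Markers of some cell types differed between the groups. Of 10 measured alveolar macrophage markers 6 were higher and 0 lower, against 4.96% and 3.27% of all genes, with a median difference of 0.96. The largest were Marco (2.60, adjusted p = 0.00248) and Chil3 (2.11, adjusted p = 0.000138), and Itgax (1.34, adjusted p = 2.56e-07), Mrc1 (1.14, adjusted p = 0.00115), Pparg (0.78, adjusted p = 1.76e-06) and Plet1 (1.28, adjusted p = 0.0473), where the groups overlapped, rose too. Plet1 passed in only 2 of the 10 fits without a lung, those without room air replicate 1 or smoke replicate 4. It did not pass without the offset, by the scanner's own ratio or with median centring. Mrc1 did not pass by the scanner's own ratio. In the green channel, where the reference was read, the Itgax probe differed as well, by 0.67 (adjusted p = 0.000481), and that of Marco by 0.88 (adjusted p = 0.304). The second probe of Itgax gave 0.48 (adjusted p = 0.0022) with 0.03 in green. The summed red signal of the list was 39215 to 68312 in room air lungs and 100384 to 175961 in smoke lungs, Chil3 was its brightest probe, and all 10 markers were well above background on all arrays. Fabp1, of the same list, was called lower with the slide as a block (-0.66, adjusted p = 0.0111). It was also called without room air replicate 1, without smoke replicate 3 and among probes well above background in red. Fabp4 and Car4 were lower without a call, and 7 of the 10 markers had a positive difference in the main fit. Fibroblast and smooth muscle markers had 2 of 6 lower, Pdgfra (-0.49, adjusted p = 5.95e-05) and Acta2 (-0.45, adjusted p = 0.00897), each by 1 probe only, of 2 and of 5, endothelial markers had 1 of 6, Pecam1 (-0.41, adjusted p = 0.0488), and B cell markers had 1 of 6 higher, Cd22 (0.85, adjusted p = 0.0136). Tagln of smooth muscle did not pass by its brightest probe (-0.31, adjusted p = 0.0707) but was lower by a dimmer one (-0.28, adjusted p = 0.041). Pecam1 passed in only 3 of the 10 fits without a lung, those without room air replicate 1 or 4 or smoke replicate 3. Cd22 did not pass without the offset or by the scanner's own ratio. With the red channel scaled to its 75th percentile, 3 of 6 endothelial markers passed, Cldn5, Pecam1 and Tie1. With the red channel normalized by quantiles Tek passed as well, which made 4. The summed red signal of the endothelial list was 80763 to 152784 in room air lungs and 41839 to 85537 in smoke lungs. In green the Cldn5 probe differed by -0.66 (adjusted p = 0.498). None of 6 club cell, 6 alveolar type 2, 6 alveolar type 1, 6 neutrophil and 5 T cell markers passed in the main fit. S100a8 of neutrophils passed without room air replicate 1. With the red channel scaled to its 75th percentile, Cyp4b1 of club cells, Sftpa1 of type 2 cells and Rtkn2 of type 1 cells passed. With the red channel normalized by quantiles, Cyp4b1 passed, as did Hopx and Rtkn2 of type 1 cells. In green the Cyp4b1 probe differed by -0.64. With the slide as a block, Aldh1a1 of club cells (0.24, adjusted p = 0.0389) and Cd3g of T cells (0.43, adjusted p = 0.00539) were called higher, and Aqp5 of type 1 cells (-0.23, adjusted p = 0.0266), Tek of endothelium (-0.24, adjusted p = 0.0159) and Myh11 of smooth muscle (-0.20, adjusted p = 0.0339) lower. In whole lung, fewer cells of a type and less RNA per cell cannot be told apart, and the part of cell makeup in the clock values was not tested.

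The genes whose values ran closest to those of Arntl over the 10 arrays, by root mean square distance of centred log2 ratios among 13866 named genes well above background, were Spon2 (0.188), Tmeff2 (0.371), Bcan (0.374), Asgr1 (0.41) and Ccnjl (0.417), where Arntl itself varied by 0.891. Spon2, a secreted matrix protein, was lower with smoke (-1.34, adjusted p = 0.0142). Closest to Dbp, which varied by 1.054, were Akr1b8 (0.306), an aldo-keto reductase, Nr1d2 (0.312), Clec7a (0.355), a receptor for fungal glucans, Lgals3 (0.356), the lectin galectin-3, and Lilrb4a (0.368). Nr1d2 was the only member among these. Nearness in this sense says nothing of shared function or control.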

How the data were processed

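Whole lung RNA of 5 room air and 5 smoke-exposed mice was hybridised on 2-colour Agilent arrays. The deposited scanner files hold spot and background intensity per channel and the scanner software's log10 ratio (Feature Extraction 9.5.3.1 per the file headers, 9.1 per the processing notes). The authors' table holds log2 values per spot, each the mean over both channels of the log2 median signal less background, and its column medians were 8.03, 7.86, 7.34, 8.03 and 7.84 for room air and 7.96, 8.06, 7.81, 7.66 and 7.88 for smoke, as the table assigns them. The values are not centred, and the table gives no ratio.

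Signals were corrected by normexp (offset 50) over all spots with limma 3.58.1 in R 4.3.3. After removal of control spots, a loess curve was fitted to the ratios of each array. Values that the software marked as outliers became missing, and replicate spots of a probe were averaged. No dim probe was removed. Groups were compared with lmFit and eBayes, and p-values were adjusted across all probes by the Benjamini-Hochberg method, and the threshold was 0.05. Where a gene had several probes, the one brightest in red stands for it. Of 41174 probes, 22951 were named through their accession, 6659 by a current symbol, 3109 by a synonym and 8455 by the file's own name. The green channel was normalized by quantiles and fitted alone. The fit was tested on simulated data.

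Same-numbered arrays share a slide per the file headers. Their deviations from the group means correlated at 0.157 to 0.55 over probes, while pairs of unlike number had a median of -0.123 and reached 0.205. Slide 1 gave the lowest, below the top of the unlike pairs, so there the pairing rests on the headers. The replicate number was tried as a block. Scan days were 4, and the slide is nested in them. Other alternatives were the exact Wilcoxon test, other background corrections, scalings and filters, the red channel alone, the mean of a gene's probes, the authors' table and leaving out each lung.

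The genes named were the 10 members with every probe, other clock genes that passed or had a fold over 1.3, with Cry1, Cry2, Rora, Nfil3, Tef, Hlf, Bhlhe40 and Ciart in any case, listed outputs, glucocorticoid targets and cell markers that passed, and the 5 genes nearest in profile to Arntl and to Dbp. A further gene is counted in the lists but not reported here. Genes that passed with the block but not without it, dimmer probes, Arntl2, Csnk1d, Wdr5 and genes in which room air replicate 1 stood apart were added after their values were seen. The members and lists were chosen with earlier results of these data known. The number of arrays limits the precision.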

Additional observations from a re-analysis of the deposited data

Results flagged for a closer look

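In each group of 5 lungs, a value was singled out when its gap to the nearest other value took up most of the range of the group. Of 74 gene groups tested, 4 gave such a value, and chance gives about 1 in 20. Nr1d1 read -0.12 in smoke replicate 2, with the next lung at -0.41. Cry2 read 1.47 in room air replicate 3, with the next at 1.23. Csnk1d, a kinase that marks Per proteins, read 0.28 in smoke replicate 2, with the next at 0.80. Wdr5, part of a histone methylation complex, read -0.46 in room air replicate 4, with the next at -0.32. Of these genes only Nr1d1 is among the 10 members, and Nr1d1 was called without smoke replicate 2 as well. On the same slides the lung of the other group stood at the same end for 3 of these genes: Cry2 was highest in smoke replicate 3 (1.43), Csnk1d lowest in room air replicate 2 (0.46) and Wdr5 lowest in smoke replicate 4 (-0.36), so lung and slide cannot be told apart there.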

How the results depend on the processing

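In 20 other limma fits of the scanner files, 19 for Npas2, the sign of all 10 members was the same as reported. Arntl, Nr1d1, Nr1d2, Bhlhe41 and Dbp passed in all 20, Clock in 19, Per3 in 18 and Npas2 in 15 of 19. The probes called were 2906, and 0 by the exact Wilcoxon test, whose smallest p of 0.00794 gives an adjusted p of 0.115 at the lowest. At an unadjusted p under 0.05 that test took 5444 probes and 8 members, but 0 members passed after adjustment. Probes called were 1434 with median centring, 1660 with an offset of 0, 1759 with the red channel at its 75th percentile and 5019 with the replicate block, and 2102 to 3660 with each lung left out in turn. Of the calls 61.7% were higher with smoke, 73.3% with an offset of 0 and 47.9% with median centring. The members called were 5 with the red channel at its 75th percentile, and 8 in each fit without a lung. Other clock genes called were 1 with median centring and 2 to 5 without a lung, 2 without smoke replicate 1. Outputs and glucocorticoid targets called were 10, and 3 with median centring, 1 with the red channel at its 75th percentile and 7 to 12 without a lung. The contrast of repressors and activators was 2.20 with an offset of 0, 2.52 with the scanner's ratio and 2.60 with the red channel at its 75th percentile. It was 1.46 with the mean of a gene's probes and 1.58 to 1.86 without a lung. In the reference channel 0 members were called in each setting run. The cause of these shifts was not tested. The replicate block changed no call of a member's brightest probe.

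The authors' table as assigned turned the signs, since its groups are exchanged relative to the scanner files: Arntl 1.09, Npas2 0.49, Clock 0.32, Per3 -0.42, Nr1d1 -0.88, Nr1d2 -0.76, Bhlhe41 -0.82, Dbp -1.04, and a contrast of -1.29. It called 13 probes, 0 members, 0 other clock genes and 0 outputs. With columns matched to the scanner files, chosen after seeing the data, these counts were equal and the contrast was 1.29. Npas2, dim in smoke lungs, is limited by signal over background, and the filter on red kept it through its room air arrays.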
